A study of Mus musculus with 16 samples.

Results

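Replication-dependent histone genes encode the histones that package newly made DNA, and they are the 59 genes described here among the 50600 genes counted in the series. They were chosen by name, as every gene whose symbol, or synonym, begins with Hist1h, Hist2h, Hist3h or Hist4h. Earlier results of these data were known when the choice was made. Of 70 such names in the name table, 11 could not be paired with an identifier of the tables and have no value here (Hist1h2bm, Hist1h3f, Hist1h2ao, Hist1h3g, Hist1h3d, Hist4h4, Hist1h2bn, Hist1h2ap, Hist1h3h, Hist1h2bl and Hist1h3i). The 59 genes comprise 18 of type H2A, 16 of type H2B, 12 of type H4, 7 of type H3 and 6 of the linker histone H1. In RefSeq on GRCm38.p6, 46 with Hist1 names lie on chromosome 13, 10 in the Hist2 cluster on chromosome 3 and 3 in the Hist3 cluster on chromosome 11. Hist1h2al, at chr13:51200084-51203066, lies far from the other Hist1 members and is counted with them by name only. RefSeq lists Hist1h2aj, Hist1h2al and Hist3h2bb-ps as pseudogenes, and they are kept here because the names fit the rule.

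The cells were F1 hybrids of 129Sv and Cast/EiJ mice, grown from embryonic stem cells into neural progenitor cells (NPCs), which self-renew in EGF and FGF2, and each NPC line was expanded from a picked colony, so that each line is 1 clone. The male NPC clones Ch3, Ch5, Ch7 and Ch8 had 2 libraries each, made after ribosomal RNA depletion. The NPC clones F5 (female), mG2 and mG6 (male) had 1 library each, made after poly(A) enrichment. The astrocytes came from the clones 129, C2 and G4 (female) and mC3 and mE6 (male), had 1 poly(A)-enriched library each, and had been grown for 48 h with BMP4 at 10 ng/mL and FGF2 at 1 ng/mL. No clone was sequenced by both preparations, and no clone in these tables was sequenced as both NPC and astrocyte.

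Messenger RNAs of this gene family are made mostly in S phase, when DNA is copied, and most end in a conserved stem-loop in place of a poly(A) tail. The stem-loop-binding protein SLBP holds that structure, and the U7 small nuclear ribonucleoprotein directs the cut just after it. Some of these genes can also give polyadenylated transcripts from a site further downstream, which are known from differentiated cells. A selection for poly(A) tails and a depletion of ribosomal RNA therefore sample different portions of the same gene's RNA.

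The stem-loops of the coding transcripts are printed because they are the feature that sets these messages apart from others. A window of 16 bases was searched that begins with GG, folds into a perfect stem of 6 base pairs and has a loop of 4 bases beginning with TTT. It was found in 38 of the 56 members that have a coding transcript in GENCODE vM1, and in 62 of 22754 coding genes of that annotation, which is 0.272%. In the members it began 21 to 58 bases after the stop codon, with a median of 31. Of the 18 members without it, 8 have transcript models that end under 16 bases after the stop codon, so the window could not have been seen. Some of the others are short too, such as Hist1h2bb with 27 bases after the stop codon and Hist1h2bk with 32, so the window may lie beyond their models. In the sequences that follow, capitals mark the stem-loop and the flanks are in lower case, with 1 gene shown for each of the 6 forms found.
Hist1h1c: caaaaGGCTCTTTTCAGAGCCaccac
Hist1h4c: caaaaGGCCCTTTTCAGGGCCaccca
Hist1h3e: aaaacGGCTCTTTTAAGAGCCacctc
Hist1h4j: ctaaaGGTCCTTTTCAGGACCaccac
Hist1h4i: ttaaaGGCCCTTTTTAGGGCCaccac
Hist2h2ac: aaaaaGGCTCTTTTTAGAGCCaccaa
The form of Hist1h1c was shared by 24 members of types H1, H2A, H2B and H3. The form of Hist1h4c was found in 6 members, all of type H4. Hist1h4i shares its form with Hist2h4, Hist1h4j with Hist1h4b, and Hist1h3e with Hist1h3c and Hist1h1t, while that of Hist2h2ac was in no other member. In 14 of the 38 members the transcript model runs over 100 bases beyond the stem-loop, as in Hist1h1c, where it runs on for 839 bases.

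The sequence before the annotated start differs by histone type, and the stretches printed show the letters that were counted. Of the 59 members, 52 were matched to a RefSeq promoter window of 250 bases before to 50 bases after the start on GRCm38.p6. The TATA box letters TATAAA were in 31 of the 52 (59.6%, against 14.2% of 27025 promoters of all genes, both strands searched). CCAAT was in 44 (84.6% against 37.9%), that is in every H1, H2A, H2B and H3 window but in only 3 of 11 H4 windows. The octamer ATTTGCAT was in 12 (23.1% against 1.75%), 7 of type H2A and 5 of type H2B. AAACACA, a motif known from H1 promoters, was in 8 (15.4% against 7.14%) and in 5 of the 6 H1 windows. None of these motifs contains another, and a match is a description of the letters only. In the lines that follow, the 130 bases before the start of an H1, an H2B and an H4 gene are given with those motifs in capitals.
Hist1h1d, chr13:23554902-23555031, plus strand: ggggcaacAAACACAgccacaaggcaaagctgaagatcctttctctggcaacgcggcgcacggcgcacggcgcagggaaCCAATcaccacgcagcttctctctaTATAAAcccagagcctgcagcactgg
Hist1h2bb, chr13:23746604-23746733, plus strand: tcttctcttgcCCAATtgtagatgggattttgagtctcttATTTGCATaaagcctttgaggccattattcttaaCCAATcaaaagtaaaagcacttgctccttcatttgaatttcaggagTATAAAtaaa
Hist1h4k, chr13:21750554-21750683, minus strand: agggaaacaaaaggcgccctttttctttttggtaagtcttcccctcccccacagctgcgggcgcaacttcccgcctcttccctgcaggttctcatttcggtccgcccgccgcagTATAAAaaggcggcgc
The H1 stretch holds the H1 motif, CCAAT and the TATA letters. The H2B stretch holds CCAAT, the octamer and the TATA letters, and the H4 stretch the TATA letters alone.

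Depth was 20871111 to 30920672 counted reads per library after ribosomal RNA depletion, 69925081 to 105892734 in poly(A) NPC libraries and 78257443 to 93963293 in astrocyte libraries. The allele-specific reads numbered 4193927 to 5971768, 21555315 to 32263331 and 26753109 to 32518327 per library in the same order. The labelled cell types were checked against markers. Nes, an intermediate filament of neural progenitors, lay at 657 to 959 CPM (reads of the gene scaled to the total of counted reads in the library) in the Ch clones, 1083 to 1671 CPM in poly(A) NPC and 59.3 to 121.8 CPM in astrocytes. Gfap, the astrocyte intermediate filament, lay at 0.444 to 3.45 CPM and 0.680 to 2.25 CPM in the NPC groups, and at 61.9 to 2092 CPM in astrocytes, highest in Astro_129. Not every marker followed the labels: Aldh1l1, an astrocyte gene, averaged 19.6 CPM in poly(A) NPC and 6.51 CPM in astrocytes, and Pax6, a progenitor gene, 33.3 and 53.3 CPM. Astro_G4 stood apart on chromosome 3, where the median percentage of Cast reads over genes was 66.1%, against 48.9 to 49.7% in all other clones, so the Hist2 results in astrocytes are also given without it. Because members resemble each other, reads can be lost or shared between copies. The median share of 75-base windows of a member's transcript that also occur in another gene was 37.15%, from 0% to 100%, with Hist2h2aa1 and Hist2h2aa2 fully alike. The counting of such reads was the authors' and was not separated further.

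Histone messages were abundant after ribosomal RNA depletion and scarce after poly(A) enrichment. Summed over the 59 genes, the Ch clones held 5069 (Ch3), 5433 (Ch5), 6558 (Ch7) and 6452 CPM (Ch8). The poly(A) NPC libraries held 101.3 (F5), 115.8 (mG2) and 111.3 CPM (mG6). The groups were far apart, with means of 5878 ± 740 CPM (SD, n = 4 clones) and 109.5 ± 7.42 CPM (SD, n = 3), a ratio of 53.7. In bulk RNA, fewer cells that express a gene and less RNA per cell cannot be told apart. Preparation and clone cannot be told apart either, since the Ch clones were all depleted of ribosomal RNA and the other NPC clones all poly(A)-enriched. The gap differed by type: the summed level of the depleted libraries over that of the poly(A) libraries was 528 for H4, 124.5 for H3, 89.2 for H2A, 31.5 for H1 and 27.7 for H2B. It was 3.30 for the 3 genes of the Hist3 cluster. These ratios are descriptions with no test, and the plot of summed levels by type shows every clone.

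**Figure D1:**
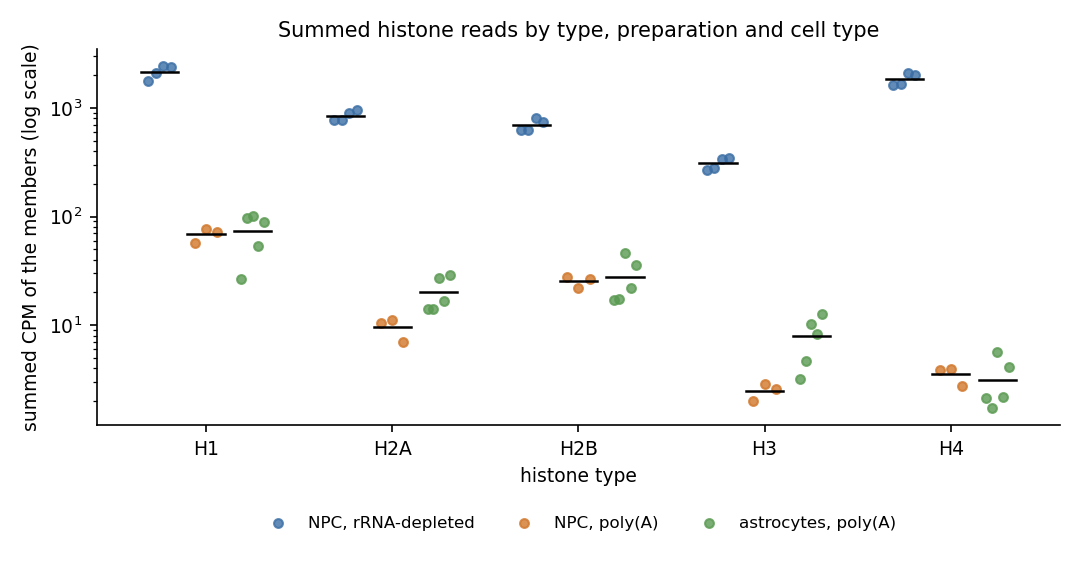
Summed CPM (log axis) of the histone genes of each type in each NPC clone after ribosomal RNA depletion, each poly(A) NPC library and each astrocyte library, 1 point per clone and a bar at the group mean. In every type the 4 depleted clones lie above all poly(A) libraries, and the gap is widest for H4, at 1854 against 3.51 CPM on average in the NPC groups.

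Different genes led in the 2 kinds of library. After ribosomal RNA depletion the linker histones Hist1h1d, Hist1h1e and Hist1h1b made up 10.3%, 8.44% and 7.53% of the summed level, followed by the core histone Hist1h4k with 7.27%. In poly(A) NPC, Hist1h1c, the linker histone H1.2, made up 61.4% and Hist1h2bc, an H2B gene, 12.5%. Without Hist1h1c the ratio between the preparations was 131. Levels were also divided by length, the shorter of the GENCODE exon length and the RefSeq span. These lengths can differ, as in Hist1h1d with 3821 bases of exon and 776 used, so the order can depend on this choice. On this scale Hist1h4k led in the depleted clones with a mean of 1369 CPM per kb. It was followed by Hist1h1d with 784, Hist1h2ai with 724, Hist1h1e with 663 and Hist1h1b with 596. In poly(A) NPC, Hist1h1c led with 92.7 CPM per kb, followed by Hist1h2bc with 18.6, Hist3h2a with 6.22, Hist1h4i with 5.49 and Hist1h2ai with 4.77. Within the depleted clones the lowest members were Hist2h2aa2, Hist1h1t (the testis linker histone) and Hist1h2aa, each with at most 7 reads per clone, and these 3 were not tested. Hist2h2aa2 shares 100% of its windows with other genes, chiefly Hist2h2aa1, so the levels of these copies cannot be told apart.

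Gene by gene, 53 of the 56 members tested were lower in poly(A) NPC than in depleted NPC and 0 were higher (edgeR quasi-likelihood test, Benjamini-Hochberg adjusted p under 0.05). Over all 18397 genes tested, 23.2% were lower and 22.1% higher. The median log2 difference was -8.21 over the members and 0.01 over all genes. Of the 56, 26 would pass the expression filter on the poly(A) NPC libraries alone, and 23 of these 26 were called lower. The other 30 passed only through the depleted libraries, so they had to differ. The CPM of 55 of the 59 members did not overlap between the preparations. The share over all genes was not computed, so this count does not show how unusual that is. It also includes members that passed the filter only through the depleted libraries. A log2 difference under -6 was found for 44 members and one under -10 for 18, of which 10 were H4 genes. For these limits too the share over all genes was not computed. Both counts include members that passed the filter only through the depleted libraries, such as Hist1h1b and Hist1h4c, so they are descriptions only.

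Among the H4 genes the log2 differences ran from -12.96 to -6.19, and all 12 were called lower. Of these, 7 passed the filter only through the depleted libraries and had to differ, and 5 would pass in poly(A) NPC alone. Hist1h4k gave 389 (Ch3), 377 (Ch5), 473 (Ch7) and 470 CPM (Ch8) against 0.274 (F5), 0.329 (mG2) and 0.171 CPM (mG6), a log2 difference of -10.94 (SE 0.28, adjusted p = 1.713e-07 with edgeR). Hist1h4c gave 85.4, 74.2, 108.2 and 95.1 CPM in Ch3, Ch5, Ch7 and Ch8, against 3 reads in F5, 0 in mG2 and 0 in mG6. The ratio was 7833, with a 95% counting interval of 2680 to 37990 that covers counting error only. Hist1h4d, Hist1h4f, Hist1h4h, Hist1h4j and Hist1h4m lay at 83.6 to 237.5 CPM in the depleted clones and at 0.0122 to 0.293 CPM in poly(A) NPC, with log2 differences of -11.66 to -10.04. Hist1h4i was the H4 gene with the smallest difference. It lay at 116.9, 127.9, 152.8 and 145.8 CPM in Ch3, Ch5, Ch7 and Ch8, against 2.52, 2.37 and 1.74 CPM in F5, mG2 and mG6 (log2 difference -6.19, SE 0.20, adjusted p = 4.244e-07 with edgeR).

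Of the linker histone genes, 5 of 6 were tested and all 5 were called lower. Of these, 2 (Hist1h1a and Hist1h1b) passed the filter only through the depleted libraries and had to differ. Hist1h1d gave 494 (Ch3), 601 (Ch5), 687 (Ch7) and 651 CPM (Ch8) against 0.274 (F5), 0.629 (mG2) and 0.220 CPM (mG6), a log2 difference of -10.95 (SE 0.43, adjusted p = 1.188e-06 with edgeR). Hist1h1a and Hist1h1b, the linker histones H1.1 and H1.5, had log2 differences of -11.24 and -11.51, and Hist1h1e, the linker histone H1.4, one of -10.03. Hist1h1c stood apart from the other linker histones. It gave 280, 334, 373 and 369 CPM in the depleted clones, in the order of Ch3 to Ch8, and 56.5 (F5), 74.0 (mG2) and 71.1 CPM (mG6) in poly(A) NPC, a log2 difference of -2.58 (SE 0.16, adjusted p = 1.758e-05 with edgeR).

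Among H2A and H2B genes the log2 differences ran from -9.47 to -0.55 and from -10.51 to -0.10. Of 16 H2A genes tested 15 were called lower, with a median log2 difference of -7.28, and of 16 H2B genes 14, with a median of -6.14. Among those tested, 9 H2A and 7 H2B genes passed the filter only through the depleted libraries and had to differ, which also shapes the medians. Hist1h2ai, the H2A gene with the highest level per kilobase, fell from 300 (Ch3), 302 (Ch5), 325 (Ch7) and 371 CPM (Ch8) to 2.64 (F5), 2.67 (mG2) and 1.09 CPM (mG6), a log2 difference of -7.50 (SE 0.37, adjusted p = 4.19e-06 with edgeR). Hist1h2bb and Hist1h2bj, both H2B genes that passed only through the depleted libraries, had log2 differences of -10.51 and -9.68. Hist1h2bc lay at 57.1, 54.1, 73.2 and 65.6 CPM in Ch3 to Ch8 and at 14.9 (F5), 9.17 (mG2) and 17.0 CPM (mG6), a log2 difference of only -2.43 (SE 0.26, adjusted p = 0.000235 with edgeR). Its values did not overlap between the preparations. Hist1h2be, another H2B gene, differed by -4.14 on the log2 scale.

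The 3 members that were not called overlap between the preparations. Hist2h2bb gave 0.163, 0.359, 0.275 and 0.290 CPM in Ch3, Ch5, Ch7 and Ch8 and 0.274, 0.415 and 0.220 CPM in F5, mG2 and mG6 (log2 difference -0.10, SE 0.36, adjusted p = 0.8413 with edgeR). Hist2h2be gave 3.66, 3.55, 3.78 and 3.17 CPM against 4.37, 3.38 and 2.46 CPM, in the same order of clones (log2 difference -0.31, SE 0.24, adjusted p = 0.334). Both are H2B genes of the Hist2 cluster with low levels in every library. Hist3h2a, an H2A gene of the Hist3 cluster, gave 3.66, 4.47, 3.45 and 4.0 CPM against 2.88, 3.98 and 2.62 CPM, with a log2 difference of -0.55 (SE 0.22, adjusted p = 0.07003 with edgeR), and was called lower with DESeq2, without mG2 and with the libraries of a Ch clone kept apart. Hist2h3c1, an H3 gene, was called with a small difference: 2.05, 2.47, 2.11 and 2.16 CPM in the depleted clones against 1.08, 1.47 and 1.41 CPM (log2 difference -0.98, SE 0.23, adjusted p = 0.009267 with edgeR). The plot of levels by preparation shows these 4 genes near the line of equal levels and most others far below it.

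**Figure D2:**
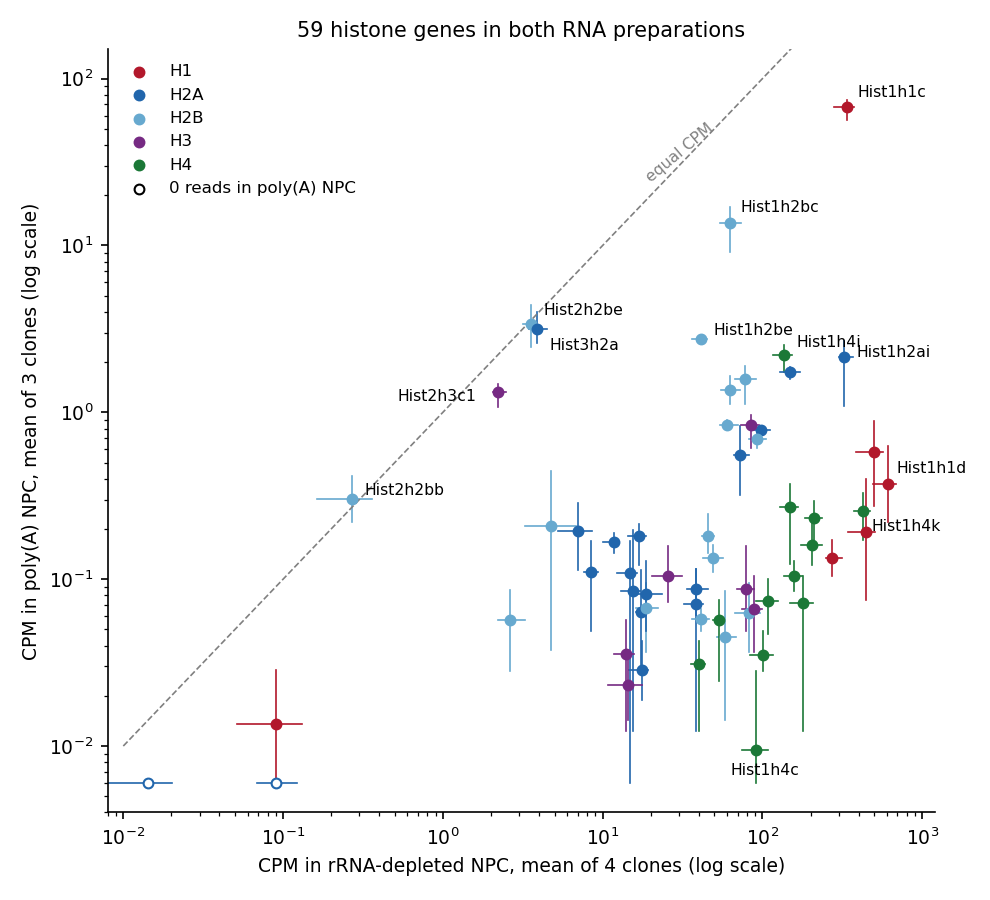
Mean CPM of each histone gene in poly(A) NPC (3 libraries, vertical log axis) against ribosomal RNA-depleted NPC (4 clones, horizontal log axis), coloured by type, with lines from the lowest to the highest value and open symbols at the lower edge for genes at 0. Hist2h2bb, Hist2h2be, Hist3h2a and Hist2h3c1 lie near equality, Hist1h1c and Hist1h2bc somewhat below, and the H4 genes lie lowest relative to their level after depletion.

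The size of the difference was set beside the end of each gene's transcript model. Where the model ended at most 100 bases beyond a stem-loop, the median log2 difference was -9.68 (23 genes tested, -12.96 to -6.35). It was -6.41 over the 13 tested genes whose model runs further (-10.95 to -0.55) and -7.30 over the 10 genes with 16 or more bases after the stop codon and no stem-loop found (-10.78 to -0.10). Of these classes 7 of 23, 10 of 13 and 5 of 10 genes would pass the expression filter on the poly(A) NPC libraries alone. The rest entered only because they were high after depletion, so the medians are shaped by the filter and are a description. The class of 10 genes also mixes long models with short ones, such as Hist1h2bb with 27 bases after the stop codon, where a stem-loop may lie beyond the model. A difference above -3, a limit chosen after the values were seen, was found in 6 members: Hist1h1c, Hist2h3c1 and Hist3h2a, whose models run 839, 1166 and 1487 bases past the stem-loop, and Hist1h2bc, Hist2h2bb and Hist2h2be, whose models hold 322, 1117 and 2192 bases after the stop codon and no stem-loop. In the other classes there were 0 such genes. A long model did not go with a small difference in every case, since that of Hist1h1d runs 3050 bases past its stem-loop. The annotation version behind the counts is not given in the sources used here, so these models may not be those that were counted.

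Genes that work with histone messages did not share this gap. Of 10 genes for replication-independent histones, most of which give polyadenylated messages, 1 was higher and 2 were lower in poly(A) NPC, with a median log2 difference of -0.03. Of 16 genes for histone message synthesis and processing, 2 were higher and 1 lower, among them neither Slbp (log2 difference 0.30, adjusted p = 0.06162 with edgeR) nor Npat, the coactivator of histone transcription (0.03, adjusted p = 0.8725). Of 10 histone chaperone genes 2 were higher and 2 lower, and of 20 S-phase genes 2 were higher and 8 lower, with a summed level of 2188 to 2603 CPM in the depleted clones and 2106 to 2833 CPM in poly(A) NPC. Of 2 nuclear RNAs listed as lacking a regular poly(A) tail, Malat1 was lower in poly(A) NPC by -2.91 on the log2 scale (adjusted p = 0.002202 with edgeR), and Neat1 was not called (-0.03, SE 0.52, adjusted p = 0.9652). Markers of other cells also moved between these groups: 3 of 5 neural progenitor markers, 1 of 6 astrocyte markers, 1 of 3 tested oligodendrocyte markers and 2 of 3 tested embryonic stem cell markers were higher in poly(A) NPC, and 1 of 4 neuron markers was lower. The summed level of the embryonic stem cell markers was 0.488 to 0.753 CPM in depleted and 1.33 to 2.41 CPM in poly(A) NPC, and the part of such cells in the histone values was not tested.

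Astrocytes were then compared with NPCs within the poly(A) preparation, which asks how the histone messages caught by poly(A) enrichment change with differentiation. The summed level was 63.3 (129), 133.6 (C2), 189.8 (G4), 102.1 (mC3) and 171.2 CPM (mE6) in astrocytes, 132 ± 51.2 CPM (SD, n = 5), against 109.5 ± 7.42 CPM in NPCs. The astrocyte clones spread on both sides of the NPC range, and their mean was 1.21 times that of the NPCs. By contrast, all 20 S-phase genes were lower in astrocytes, with a summed level of 234.1 to 397 CPM. Ccna2, the cyclin of S phase and G2, was lower by -6.56 on the log2 scale (adjusted p = 1.8e-05 with edgeR). This comparison shares its 3 NPC libraries with the one between preparations.

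Of the 33 members tested, 3 were higher and 2 lower in astrocytes (edgeR, adjusted p under 0.05), while over all 18192 genes tested 13.0% were higher and 12.6% lower. With DESeq2, 7 members were higher and 2 lower, where 18% and 16.5% of all genes were. The added members were Hist2h2ac, Hist2h2bb, Hist2h3c2 and Hist2h4. The median log2 difference was 0.18 over the members and 0.08 over all genes. Hist2h2aa1, an H2A gene, gave 4.06 (129), 7.00 (C2), 10.2 (G4), 7.32 (mC3) and 12.6 CPM (mE6) in astrocytes and 1.86 (F5), 1.77 (mG2) and 1.59 CPM (mG6) in NPCs. Every astrocyte library lay above every NPC library, with a log2 difference of 2.31 (SE 0.43, adjusted p = 0.007281 with edgeR). All windows of Hist2h2aa1 also occur in another gene, chiefly Hist2h2aa2, so its values may hold reads of both copies. Hist1h2al, a transcribed pseudogene by RefSeq, was higher as well: 2.29, 4.19, 5.52, 3.26 and 6.77 CPM in 129, C2, G4, mC3 and mE6 against 0.831, 0.815 and 0.697 CPM in F5, mG2 and mG6 (log2 difference 2.56, SE 0.46, adjusted p = 0.0063 with edgeR). It shares 52.6% of its 75-base windows with other genes, chiefly Hist2h2aa1, so these 2 results are not independent. Hist2h3c1 gave 2.18, 2.89, 6.38, 4.97 and 7.39 CPM against 1.08, 1.47 and 1.41 CPM in the same orders, without overlap (log2 difference 1.92, SE 0.50, adjusted p = 0.02438 with edgeR). Hist2h3c1 too shares windows, 28.2% of them, with other genes, chiefly Hist2h2aa1. The 3 higher calls may therefore not be independent of each other, and the part of shared reads was not tested.

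The members that fell were both H2A genes of the Hist1 cluster. Hist1h2ai gave 0.374 (129), 0.451 (C2), 0.810 (G4), 0.473 (mC3) and 0.745 CPM (mE6) in astrocytes against 2.64 (F5), 2.67 (mG2) and 1.09 CPM (mG6), a log2 difference of -1.83 (SE 0.43, adjusted p = 0.01788 with edgeR). Hist1h2aj, its neighbour and a pseudogene by RefSeq, lay at 0.0376 to 0.249 CPM in astrocytes and 0.318 to 0.831 CPM in NPCs, a log2 difference of -2.06 (SE 0.57, adjusted p = 0.03018). Neither gene overlapped between the groups. Without F5, and likewise without mG2, Hist1h2ai, Hist1h2aj and Hist2h3c1 were no longer called. Hist2h3c1 also lost its call without mG6, and Hist1h2aj without 129, mC3 or mE6 of the astrocytes. Hist1h2al and Hist2h2aa1 kept theirs whichever library was left out.

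The clusters moved differently by count. All 9 Hist2 genes tested had a log2 difference above 0 (0.32 to 2.31, median 1.62), although 7 of them were not called. In addition to the genes above they include Hist2h2ac (1.90, adjusted p = 0.06074), Hist2h3c2 (1.86, adjusted p = 0.05104) and Hist2h4 (1.60, adjusted p = 0.1008) by edgeR's test. Of 22 Hist1 genes tested 9 had a difference above 0 and 13 one below it, with a median of -0.31. This count goes by name and includes Hist1h2al, which lies far from the Hist1 cluster. The Hist2 sum was 15.9, 15.6, 39.7, 23.2 and 34.8 CPM in 129, C2, G4, mC3 and mE6 against 8.56, 8.92 and 7.24 CPM in F5, mG2 and mG6, without overlap. Astro_G4, in which chromosome 3 stood apart, was highest. Without it all 9 differences were still above 0, but smaller, at 0.20 to 2.18 with a median of 1.12, and the Hist2 sum in the other astrocytes was 15.6 to 34.8 CPM. Hist2h2ac was then at 1.74 (adjusted p = 0.107), Hist2h3c2 at 1.74 (adjusted p = 0.08932) and Hist2h4 at 0.98 (adjusted p = 0.1467) by edgeR's test. The same 5 members were called, with Hist2h2aa1 at 2.18 (adjusted p = 0.01709) and Hist2h3c1 at 1.75 (adjusted p = 0.04772) by edgeR's test. The difference between clusters was not tested, and Hist2 genes are neighbours that can share reads.

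**Figure D3:**
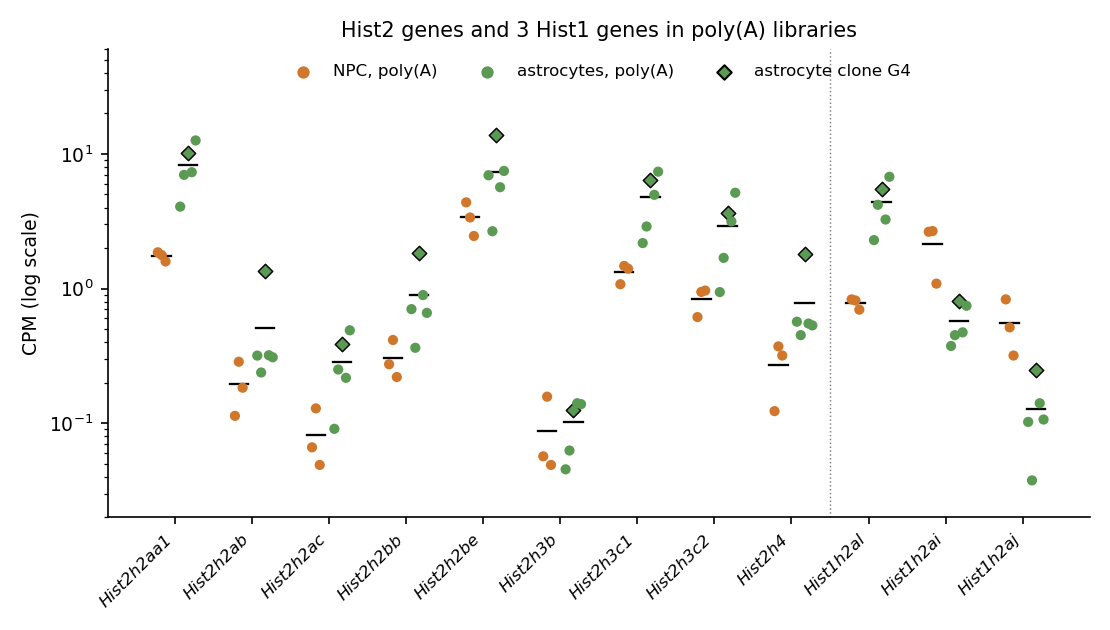
CPM (log axis) in each poly(A) NPC library and each astrocyte library for the Hist2 members tested (left of the dotted line) and the 3 Hist1 members called between the groups (right), 1 point per library, with bars at the group means and Astro_G4 drawn as a diamond. Hist2h2aa1, Hist1h2al and Hist2h3c1 lie higher in all 5 astrocyte libraries than in all 3 NPC libraries, and Hist1h2ai and Hist1h2aj lie lower in all 5.

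The genes that dominate the poly(A) sum were spread more widely in astrocytes than in NPCs. Hist1h1c lay at 26.2 (129), 94.8 (C2), 98.0 (G4), 52.7 (mC3) and 88.7 CPM (mE6), which brackets the NPC values of 56.5 to 74.0 CPM (log2 difference 0.18, SE 0.43, adjusted p = 0.7947 with edgeR). Hist1h2bc lay at 5.29 to 20.7 CPM in astrocytes and 9.17 to 17.0 CPM in NPCs (log2 difference 0.03, SE 0.48, adjusted p = 0.9749). For these genes a change smaller than the spread between astrocyte clones was not detectable. Of the helper lists, 5 of 16 genes for histone message synthesis and processing were lower in astrocytes and 0 higher, among them Slbp (log2 difference -1.22, adjusted p = 0.000965) and Lsm11, a U7 particle protein (-1.44, adjusted p = 0.008161), both with edgeR. Of 10 chaperone genes 7 were lower, including Asf1b (-4.13, adjusted p = 9.2e-05), which hands H3 and H4 to the assembly machinery, and Chaf1a (-2.55, adjusted p = 0.000204), a subunit of chromatin assembly factor 1. Of 10 replication-independent histone genes 4 were lower, including Cenpa, the centromeric H3 (-4.94, adjusted p = 0.000133). Of markers, 3 of 6 for astrocytes were higher and 1 lower, 2 of 5 for neural progenitors and 2 of 3 tested for embryonic stem cells were lower, 1 of 4 for neurons was higher, and 0 of 3 tested for oligodendrocytes was called. The neuron marker sum was 4.70 to 40.2 CPM in astrocytes and 14.4 to 29.4 CPM in NPCs, and its part in the histone values was not tested.

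The 4 depleted clones were compared with each other, with the 2 libraries of each clone as replicates. The labels do not say whether these come from separate cultures, so the p-values measure only the spread between libraries. Of 55 members tested 10 differed among clones, against 16.6% of all 17095 genes tested. The smallest p-values belonged to the linker histones Hist1h1b (adjusted p = 0.004266) and Hist1h1e (adjusted p = 0.0114) by edgeR's test. Hist1h1b gave 327 and 357 CPM in the libraries of Ch3, 415 and 459 in Ch5, 484 and 489 in Ch7 and 477 and 534 in Ch8. Ch3 was lowest, and when each clone was set against the other 3, a comparison added after the data were seen, Hist1h1b was called lower in Ch3 (log2 difference -0.44, adjusted p = 0.0427 with edgeR) as the only member, where 5.57% of all genes were called. Against the other clones, 0 members were called in Ch5 (0.175% of all genes), Ch7 (0.638%) and Ch8 (0.526%). Hist1h1e gave 398 and 379 CPM in Ch3, 433 and 517 in Ch5, 553 and 564 in Ch7, and 526.2 and 609.3 in Ch8. Hist2h2aa1, Hist2h4, Hist1h2bc, Hist1h3a, Hist3h2ba and Hist1h4a were next by p, with clone means within a factor of about 2 of each other for all but Hist3h2ba, at 5.04, 4.0, 6.78 and 3.26 CPM in Ch3, Ch5, Ch7 and Ch8. With DESeq2 the number was 23 of 55 members, where 16.9% of all genes were called, and with no expression filter 43 of 59, where 14% were. The number also moved with the libraries used, from 2 without the first library of Ch7 to 22 without the second of Ch5. It was also 4 without the second library of Ch3 and 5 without the first of Ch5, and 16 without the first of Ch8.

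Allelic ratios were the percentage of allele-specific reads from the Cast allele, for genes with at least 20 such reads. After ribosomal RNA depletion 33 members reached this minimum in some clone and 30 in all 4. The 125 values comprised 14 in the monoallelic range (under 15% or over 85%), 33 in the biased range and 78 in the biallelic range (35 to 65%). Each value is 1 member in 1 clone. The 14 were those of Hist1h2aj, Hist1h4n and Hist1h2bc in all 4 clones, with Hist1h1d in Ch5 (21 reads) and Hist1h2ag in Ch8 (22 reads). The shares over all genes were not computed, so these counts do not show how unusual they are. The Cast allele was called higher than the 129 allele in 11 of the 30 members and lower in 8 (edgeR, clones as replicates), while over all 11428 genes tested 12.4% were higher and 25.5% lower. Of 24 members with 200 or more reads in every clone, none spread by more than 10.9 percentage points among clones. The other 6, with 22 to 191 reads per clone, spread by 2.7 to 46.9 points, widest in Hist2h3b (22.7 to 69.6%). The median gap between the 2 libraries of a clone was 2.35 points over 116 pairs, with the largest, 34.9 points, in Hist3h2ba.

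The most extreme ratio belonged to Hist1h2aj, with 99.1% (Ch3), 99.7% (Ch5), 98.7% (Ch7) and 98.5% (Ch8) Cast reads out of 794 to 959. It was called (log2 difference 6.66, SE 0.41, adjusted p = 0.0003341 with edgeR). At the other end was Hist1h4n, an H4 gene, with 2.40%, 3.92%, 3.38% and 4.04% Cast reads in Ch3, Ch5, Ch7 and Ch8, out of 624 to 947 (log2 difference -4.82, SE 0.16, adjusted p = 7.726e-05). Hist1h4n shares 83.4% of its 75-base windows with other genes and Hist1h2aj is a pseudogene by RefSeq, so for both the reads may in part be those of a copy, which was not tested.

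Between these ends lay genes with a steady imbalance. Hist1h2bc gave 93.5%, 89.2%, 92.6% and 92.9% Cast reads in Ch3, Ch5, Ch7 and Ch8, Hist1h4i 81.9%, 84.4%, 84.0% and 84.7%, and Hist1h4c 79.2 to 81.8%. Hist1h2bj gave 68.3 to 72.2% and Hist1h2ai 66.2 to 67.3%. On the 129 side, Hist1h2be gave 22.1%, 18.9%, 16.1% and 18.1%, Hist1h3c 29.8 to 40.7%, Hist1h4b 35.3 to 39.6% and Hist1h2bb 36.2 to 37.1%. All 9 were called in their direction, with the largest adjusted p in Hist1h3c (0.006758 with edgeR). They were named for an extreme ratio or for a call in this test, so the calls add no separate evidence. Of the 4 linker histones tested, Hist1h1e gave 49.5 to 50.2% and Hist1h1b 47.5 to 50.8% out of 4568 or more reads per clone, and neither was called (adjusted p = 0.7688 and 0.5815 with edgeR). The other two were called on opposite sides, Hist1h1a at 36.7 to 42.5% (adjusted p = 0.001766) and Hist1h1c at 59.3 to 62.9% (adjusted p = 0.0004491). In the depleted clones, genes of the same type in the Hist1 cluster gave ratios on opposite sides of 50%, as in Hist1h4i (chr13:22040960-22041362) and Hist1h4b. The part of shared reads in these ratios was not tested.

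**Figure D4:**
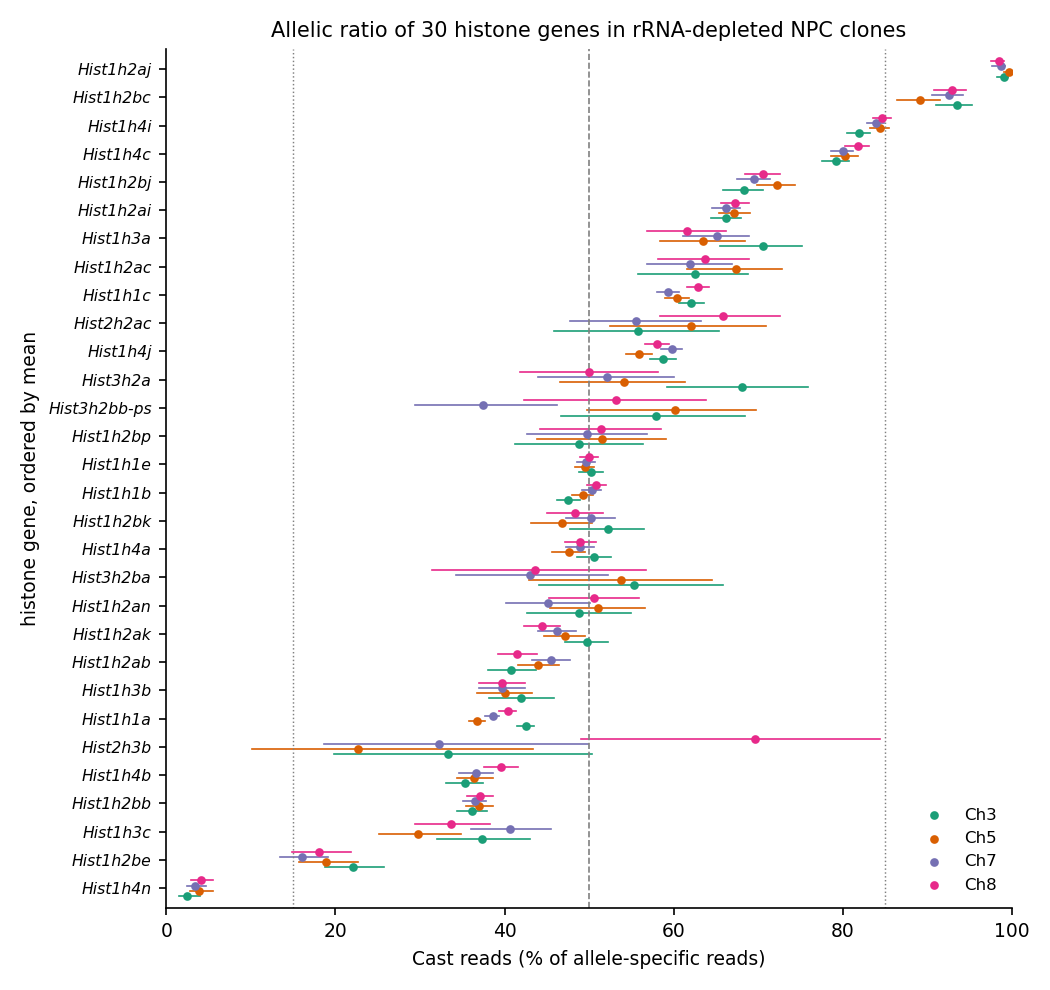
Percentage of Cast reads for the 30 histone genes with 20 or more allele-specific reads in all 4 Ch clones, 1 point per clone, ordered by mean, with a dashed line at 50% and dotted lines at 15% and 85%. The clones lie close together within most genes, from Hist1h4n near 3% to Hist1h2aj near 99%.

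Hist1h1a was the only one of 29 members tested whose ratio differed among the Ch clones (adjusted p = 1.445e-06 with edgeR), where 8.86% of all 10083 genes tested did. Its ratio was 42.5% in Ch3 (95% Wilson interval 41.5 to 43.5%), 36.7% in Ch5 (35.8 to 37.7%), 38.6% in Ch7 (37.7 to 39.4%) and 40.4% in Ch8 (39.4 to 41.3%). The libraries were 45% and 41% in Ch3, 37.3% and 36.1% in Ch5, 39.3% and 37.8% in Ch7 and 41.2% and 39.5% in Ch8, so the clones differ by a few points on the same side of 50%. With some libraries left out the number of members called was up to 3, with the highest value without the first library of Ch5.

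In the poly(A) libraries 8 members reached 20 allele-specific reads in NPCs, 6 of them in all 3 clones, and 8 in astrocytes, 5 of them in all 5. The 20 NPC values comprised 10 biased and 10 biallelic ones, and the 28 astrocyte values 1 monoallelic, 15 biased and 12 biallelic ones. The shares of these ranges over all genes were not computed here either. Of 5 members tested over all 8 poly(A) libraries, 2 were Cast-higher (16.0% of 10959 genes) and 1 was Cast-lower (24.3%). Hist1h1c was Cast-higher, at 71.6% (F5), 71.4% (mG2) and 69.5% (mG6) in NPCs and 67.9 to 72.4% in astrocytes (log2 difference 1.23, SE 0.04, adjusted p = 7.454e-07 with edgeR). Hist1h2bc was Cast-higher too, at 70.3%, 64.1% and 72.3% in F5, mG2 and mG6 and 52.3 to 73.7% in astrocytes (0.94, SE 0.17, adjusted p = 0.002869). Hist1h4i was Cast-lower, at 25.2%, 30.1% and 20.7% in F5, mG2 and mG6 and 25.6%, 28.6%, 20.2%, 12.5% and 18.4% in 129, C2, G4, mC3 and mE6 (-1.80, SE 0.18, adjusted p = 0.0001293). The astrocyte values of Hist1h4i rest on 35 to 141 reads each. Between astrocytes and poly(A) NPC, 0 of these 5 members differed in ratio, also at an unadjusted p under 0.05 (edgeR, 0.703% of all genes called). The smallest adjusted p was 0.7078, for Hist1h4i.

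The same gene could lean to opposite alleles in the 2 preparations. The difference between the preparations in the Cast to 129 ratio was tested for 6 members, after the values had been seen. It was called for 4 of them, 2 higher (6.36% of 10873 genes) and 2 lower (2.71%) in poly(A) NPC. Hist1h4i went from 81.9 to 84.7% Cast reads in the depleted clones to 20.7 to 30.1% in poly(A) NPC, a change of -3.93 in the log2 ratio (SE 0.17, adjusted p = 0.0002758 with edgeR). Its depleted values rest on 3066 to 4972 reads and its poly(A) NPC values on 82 to 159.

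Hist1h2be changed in the other direction, from 22.1%, 18.9%, 16.1% and 18.1% in Ch3, Ch5, Ch7 and Ch8 to 50.4%, 53.5% and 55.1% in F5, mG2 and mG6 (2.29, SE 0.16, adjusted p = 0.000555). Hist1h2bc was less Cast-sided in poly(A) NPC (-2.40, SE 0.23, adjusted p = 0.001739). Hist1h1c was more so, from 62.1%, 60.4%, 59.3% and 62.9% to 71.6%, 71.4% and 69.5% in the same orders of clones (0.62, SE 0.07, adjusted p = 0.002741). For none of these 4 genes did the clones of the preparations overlap. Hist1h2bp (-0.46, adjusted p = 0.4603) and Hist3h2a (-0.18, adjusted p = 0.7753) were not called, with SEs of 0.25 and 0.28. The astrocyte libraries, made from 5 further clones by poly(A) enrichment, lay with poly(A) NPC for Hist1h4i, at 12.5 to 28.6%, and for Hist1h2be, at 45.1 to 71.8%. Clone and preparation cannot be told apart in this comparison either.

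**Figure D5:**
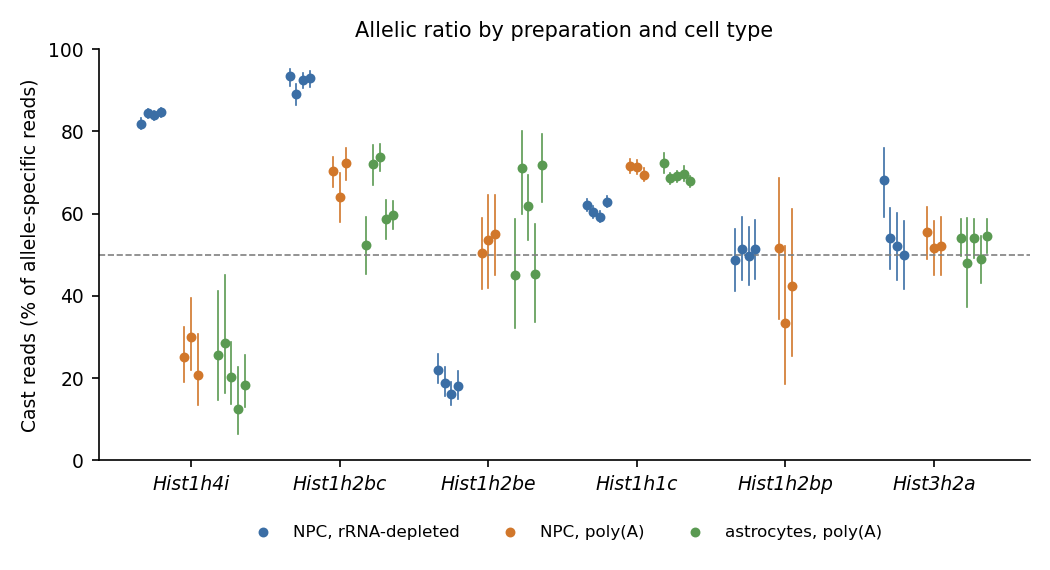
Percentage of Cast reads in each clone for the 6 members with enough reads in both NPC preparations, with the astrocyte clones beside them and 95% Wilson intervals that cover counting error only. Hist1h4i lies above 80% in all 4 depleted clones and below 35% in all 8 poly(A) libraries, and Hist1h2be lies below 25% in the depleted clones and above 45% in the poly(A) ones.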

How the data were processed

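The authors aligned 75 or 100 bp paired reads to a mouse genome (GRCm38) masked at SNPs between the strains, with TopHat2 2.1.0 and Bowtie2, assigned reads to an allele with SNPsplit and counted them per gene, by strand, with featureCounts 1.5.1. Deposited counts per library are Cast reads, 129 reads and all reads, not normalized. A deposited fraction, the Cast share, was not used. Per-sample value columns not used otherwise numbered 0. All 16 libraries of 12 clones were used, and reads were added up over both libraries of a Ch clone except where these clones were compared with each other.

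Expression was tested with edgeR 4.0.16 (quasi-likelihood test, TMM, its expression filter) in R 4.3.3 across all genes, with Benjamini-Hochberg adjusted p under 0.05. A standard error is the log2 difference divided by the root of the F statistic. Alleles were tested in the same way with the 2 allele columns of a clone sharing a library size, and a minimum of 20 allele-specific reads in every clone. Intervals are 95% Wilson, or for ratios of counts exact, and cover counting error only. Where no more than 3 reads were counted in a group, the ratio is given with its interval. CPM were computed from all counted reads, and per kilobase from the shorter of the GENCODE exon length and the RefSeq span. Alternatives were DESeq2 1.42.0, library size only, no expression filter, sex as covariate, a replicate block, other read minimums and leaving out each clone or library. The steps were tested on simulated data. Levels, intervals and sequence searches were computed in Python 3.11.15 with pandas 2.3.3 and scipy 1.17.1.

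The members and gene lists were chosen with earlier results of these data known. Named with values are the members with the highest level per kilobase, the extreme differences, those called and the extreme allelic ratios. Positions and promoters are from RefSeq on GRCm38.p6. Stem-loops come from GENCODE vM1 transcripts, matched by gene identifier and not by position. Replicates are clones, so p-values measure the spread between clones, or between libraries where the clones were compared.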

Additional observations from a re-analysis of the deposited data

Results flagged for a closer look

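The levels of the named members in the Ch clones and in the astrocytes, 64 groups in all, were screened for a clone far from the others, and 3 were found, while chance gives about 1 in 20. Hist1h1a, a linker histone gene, was at 0.573 CPM in Astro_G4 and at 0.0794 to 0.138 CPM in the other 4 astrocyte libraries. Hist2h4, an H4 gene on chromosome 3, was at 1.81 CPM in Astro_G4 and at 0.451 to 0.567 CPM in the others. Hist3h2ba, an H2B gene, was at 1.11 CPM in Astro_129 and at 0.0250 to 0.287 CPM in the others. Of 25 groups of percentages of Cast reads, 0 were found.

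The change of the Cast to 129 ratio between poly(A) and ribosomal RNA-depleted NPC differed from 0 in 4 members by edgeR's test of the interaction. It was 0.62 for Hist1h1c, -2.40 for Hist1h2bc, 2.29 for Hist1h2be and -3.93 for Hist1h4i, in log2 units. These were called under every alternative run, that is with a minimum of 10 or 50 reads and without each clone in turn.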

How the results depend on the processing

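The drop of members in poly(A) NPC kept 53 to 54 calls without each clone and 55 without an expression filter. Without the 20 most abundant genes the summed share of reads was 0.823% after depletion and 0.0119% in poly(A) NPC, in place of 0.588% and 0.0110%. In astrocytes against NPC, 7 members were called higher with DESeq2 (18% of all genes), 2 to 5 higher and 0 to 3 lower without each library, and 2269 to 4849 genes in all. Among Ch clones the 10 members became 23 with DESeq2 (2881 genes in all), 4 with library size only, 43 with no expression filter (4361 genes in all) and 2 to 22 without each library, with 1509 to 3244 genes in all. The library numbers of Ch clones do not pair samples by the labels, and deviations correlated at -0.18 to 0.279 between clones. With a replicate block 14 members differed among clones and 1 in allelic ratio, with 3391 and 888 genes in all. Allelic calls among clones ranged from 1 to 3 without each library. With a minimum of 50 reads, 0 members were Cast-lower in poly(A) libraries, since Hist1h4i was not tested. With a minimum of 10, astrocytes had 44 values, of which 2 were monoallelic and 24 biallelic. No named member that was called in the main fit or in an alternative changed sign between them. Differences that were not called could do so, as in Hist2h2bb between preparations, at -0.34 to 0.07 without each clone. The cause of these changes was otherwise not tested. Poly(A) values of most members rest on few reads (a median of 5 to 20 per astrocyte library), which limits any fold there.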
